A study of Mus musculus with 2 samples.

Results

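The genes described here were the isozymes of the glycolytic pathway, its glucose and lactate transporters, and a set of genes of the response to low oxygen. They were 34 of the 43346 genes present in the tables of both libraries, chosen by name and function with earlier results of these data known. All 34 were annotated as protein-coding. Total RNA of whole stomachs from B6NCrl mouse embryos at day 15.5 was sequenced, from 10 ng of RNA longer than 200 nucleotides. The series held 1 group and no second condition, with no mutation or treatment in the labels. Its 2 biological replicates were pools of healthy embryos of both sexes, 78 embryos in replicate 1 and 62 in replicate 2. The gene tables held 43209506 counts on genes in replicate 1 and 44257493 in replicate 2, and 1.88% and 2.999% of all counts fell on ERCC spike-ins.

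Glycolysis splits glucose into pyruvate and yields ATP without oxygen, and lactate dehydrogenase then turns pyruvate into lactate while restoring the NAD that the pathway consumes. Most steps are served by several isozymes, each from its own gene, with preferred tissues such as muscle, brain, liver or blood. When oxygen is low, the prolyl hydroxylases (the Egln proteins) no longer mark HIF alpha subunits for breakdown through the von Hippel-Lindau ubiquitin ligase. The HIF complex then raises transcription of many glycolytic genes, and embryonic tissues commonly express such genes strongly.

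The labelled tissue was checked against its markers. All 10 stomach epithelium markers and all 5 stomach mesenchyme markers were detected, at 1 TPM (transcript abundance corrected for length and library size, the unit of all levels below) or more in both libraries. Markers of other tissues were present too. The 8 liver markers summed to 2258 TPM in replicate 1 and 1097 in replicate 2, and the 6 exocrine pancreas markers to 7867 and 10749 TPM. In such bulk pools fewer cells of a type and less RNA per cell cannot be told apart. Errors are SDs over both libraries (n = 2), and no test was run on 2 values.

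The pyruvate kinase gene Pkm (ENSMUSG00000032294.12, chr9:59656368-59679375, mm10, plus strand) carries the splice choice for which the pathway is best known. Its M1 and M2 exons are mutually exclusive: adult muscle and brain use the M1 exon, while embryonic and proliferating tissues use the M2 exon, whose enzyme can be regulated by fructose 1,6-bisphosphate. Both exons are shown because the isoform shares below rest on reads that tell them apart. The M2 exon lies at chr9:59675568-59675734 and the M1 exon upstream of it at chr9:59675029-59675195, each of 167 bases (mm10 genome, exon limits from GENCODE M21). Capitals mark the 64 bases at which the exons differ, which leaves them 61.7% identical.
Pkm M2 exon: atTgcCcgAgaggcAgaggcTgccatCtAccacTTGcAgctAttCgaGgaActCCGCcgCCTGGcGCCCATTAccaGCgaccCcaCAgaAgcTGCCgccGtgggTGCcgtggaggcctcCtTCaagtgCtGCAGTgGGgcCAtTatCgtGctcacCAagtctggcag
Pkm M1 exon: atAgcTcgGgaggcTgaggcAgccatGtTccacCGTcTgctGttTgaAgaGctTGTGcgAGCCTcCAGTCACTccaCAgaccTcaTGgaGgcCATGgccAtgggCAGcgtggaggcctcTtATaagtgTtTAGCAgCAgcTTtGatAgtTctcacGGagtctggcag

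All 34 genes, chosen with earlier results of these data known, were detected, where 35.9% of all genes and 64.5% of protein-coding genes were. Of these, 13 (38.2%) reached 100 TPM in both libraries, where 10% of the detected genes did. Their median level was 45.4 TPM in replicate 1 and 45.9 in replicate 2, against medians over the detected genes of 15.3 and 15.5 TPM. The levels ranged from Ldha at 1549 ± 64.7 TPM to Hk3 at 1.70 ± 0.141 TPM, and 5 genes averaged below 10 TPM. In descending order of mean level they were Ldha, Gapdh, Eno1, Pkm, Tpi1, Aldoa, Pgam1, Gpi1, Pgk1, Pfkl, Ldhb, Slc2a1, Bnip3, Pdha1, Pdk1, Hif1a, Slc16a3, Egln3, Pfkp, Hk1, Car9, Slc16a1, Pfkm, Aldoc, Hk2, Pfkfb3, Pklr, Eno3, Egln1, Slc2a3, Eno2, Pgam2, Epas1 and Hk3. Of the 33 pairs of neighbours in this order, 19 did not overlap between the libraries and 14 did. The pairs with overlapping values included Ldha with Gapdh, Gapdh with Eno1 and Pdk1 with Hif1a. In these the first gene was still the higher one within each library. Other overlapping pairs were Gpi1 with Pgk1, Ldhb with Slc2a1, Slc2a1 with Bnip3, Pfkp with Hk1 and Hk1 with Car9. Their order differed between the libraries.

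**Figure D1:**
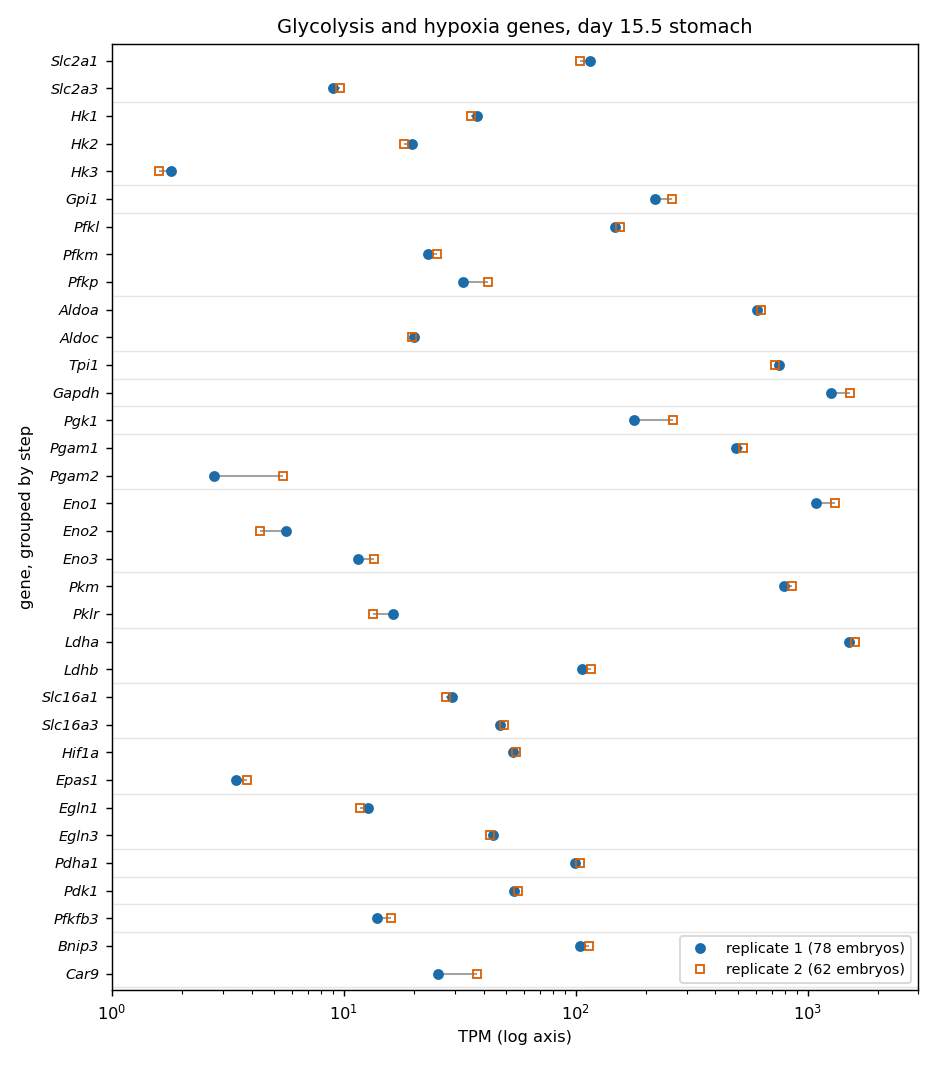
Level of each of the 34 genes in TPM (horizontal log axis) in replicate 1 (filled circles) and replicate 2 (open squares), with grey lines joining both values and light lines separating the steps. Ldha, Gapdh and Eno1 lie farthest to the right in both libraries, and the widest gap between libraries is that of Pgam2, at 2.75 and 5.48 TPM.

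Glucose enters cells through facilitative transporters. Slc2a1, the widespread transporter GLUT1, had 115 TPM in replicate 1 and 104 in replicate 2, and Slc2a3, the high-affinity neuronal and placental GLUT3, had 8.99 and 9.66 TPM. Slc2a1 was thus higher in both libraries, by a log2 ratio of 3.55 ± 0.17. Slc2a4, the insulin-responsive GLUT4 and no member of the 34, lay between them at 21.5 and 23.5 TPM, while Slc2a2, the liver and islet GLUT2, had 3.82 and 2.83 TPM.

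Hexokinase, which phosphorylates glucose and traps it in the cell, was the step with the lowest summed level, 57.1 ± 2.80 TPM. Hk1, the housekeeping form, had 37.7 TPM in replicate 1 and 35.2 in replicate 2. Hk2, the form of muscle and many tumours and a known HIF target, had 19.6 and 18.2 TPM. Hk1 took 63.8% and 64.0% of the hexokinase TPM and Hk2 33.2% and 33.1%, so the split differed by less than 1 percentage point between pools. The log2 ratio of Hk1 over Hk2 was 0.95 ± 0.0046, and 1.97 when TPM was summed over protein-coding transcripts alone, because 47.9% and 47.8% of the Hk2 TPM lay on them. Hk3, the form of white blood cells, had 1.80 and 1.60 TPM, from 151 and 129 counts. The 7 macrophage markers summed to 464 TPM in replicate 1 and 406 in replicate 2, and their part in the Hk3 level was not tested. Hkdc1, a relative of the hexokinases outside the 34, had 10.5 and 15.3 TPM.

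Gpi1, the single glucose-6-phosphate isomerase, had 219.7 TPM in replicate 1 and 261 in replicate 2. Phosphofructokinase, the main regulated step, was led by the liver type Pfkl with 147 and 156 TPM. The platelet type Pfkp had 32.7 and 41.7 TPM and the muscle type Pfkm 23.1 and 25.1 TPM. Pfkl held 72.5% and 69.98% of the step, and its log2 ratio over Pfkp was 2.04 ± 0.19. The muscle type was thus the lowest of the 3 in both pools of this organ. On protein-coding transcripts alone Pfkp had 23.36 TPM in replicate 1 and 28.45 in replicate 2, and Pfkm 23.06 and 25.11 TPM. These were nearly level in replicate 1, and the log2 ratio of Pfkl over Pfkp became 2.54. All 6 smooth muscle markers were detected, with sums of 3386 and 3428 TPM.

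Pfkfb3 makes fructose 2,6-bisphosphate, the strongest activator of phosphofructokinase, and is a known HIF target. It had 13.9 TPM in replicate 1 and 15.9 in replicate 2. The other 3 bifunctional enzymes of the family were lower in both libraries, Pfkfb2 with 8.23 and 8.87 TPM, Pfkfb1 with 5.10 and 4.92 TPM and Pfkfb4 with 4.84 and 5.13 TPM.

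Aldolase was carried by Aldoa, the form of muscle and most embryonic tissues, with 602 TPM in replicate 1 and 628 in replicate 2. Aldoc, the brain form, had 20.1 and 19.7 TPM, a log2 ratio of Aldoa over Aldoc of 4.95 ± 0.06. Tpi1, the triose phosphate isomerase without a second isozyme, had 748 and 724 TPM and was the only one of the 6 highest genes with the higher level in replicate 1.

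The later part of the pathway, where ATP is gained, held the most abundant transcripts. Gapdh, which oxidises glyceraldehyde 3-phosphate, had 1256 TPM in replicate 1 and 1520.2 in replicate 2. This figure depends on how reads were assigned: 60.6% and 61.1% of the Gapdh TPM lay on Gapdh-208, a transcript of 483 bases annotated as non-coding. That transcript carried 9017 and 11055 of the gene's 28399 and 35046 counts. Over protein-coding transcripts alone Gapdh had 475 and 574 TPM and ranked 6 instead of 2 among the 34 genes.

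Pgk1, the phosphoglycerate kinase on the X chromosome (ENSMUSG00000062070.8, chrX:106187100-106203699), had 178 TPM in replicate 1 and 262 in replicate 2. Its retrogene Pgk2, known for its use in male germ cells, had 0 counts in both libraries. Pgam1, the brain-type phosphoglycerate mutase, had 489 and 524 TPM. Pgam2, the muscle type, had 2.75 and 5.48 TPM, from 63 and 126 counts. The log2 ratio of Pgam1 over Pgam2, 7.03 ± 0.63, had the highest mean among the ratios of a leading isozyme over the next one. Bpgm, which makes 2,3-bisphosphoglycerate in red cells, had 43.9 and 38.5 TPM.

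Enolase was led by Eno1, the alpha form of embryonic and most adult tissues, with 1087 TPM in replicate 1 and 1308 in replicate 2. The muscle enolase Eno3 had 11.5 and 13.5 TPM, and the neuronal enolase Eno2 had 5.65 and 4.35 TPM. Eno1 took 98.4% and 98.7% of the step, with a log2 ratio over Eno3 of 6.58 ± 0.03. The 8 neuron markers were all detected and summed to 245 TPM in replicate 1 and 243 in replicate 2, and their part in the Eno2 level was not tested. For Eno2 the highest transcript in replicate 1, with 50.3% of the gene, was a retained-intron transcript, so its protein-coding transcripts had 2.08 and 2.35 TPM.

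Pkm had 787 TPM in replicate 1 and 855 in replicate 2, against 16.3 and 13.4 TPM for Pklr, the gene of the liver and red cell pyruvate kinases. The log2 ratio of Pkm over Pklr was 5.80 ± 0.29. The tables held 2 Pkm transcripts of equal length, 2432 bases, that differ by the exon shown above. The M2 transcript had 704 TPM in replicate 1 and 773 in replicate 2, and the M1 transcript had 83.0 and 81.4 TPM. The M2 exon was therefore in 89.5% and 90.5% of the Pkm transcripts, a mean of 89.96 ± 0.722%. This was an 8.48-fold excess over the M1 form in replicate 1 and a 9.50-fold excess in replicate 2. The M1 form alone was still above Pklr in both libraries. The tables listed no other Pkm form, so these are shares of M1 plus M2 alone.

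Pklr (ENSMUSG00000041237.8, chr3:89136142-89146784, plus strand) has an upstream promoter used in red cells and a downstream promoter used in liver. Its transcript from the upstream start, Pklr-201, had 8.25 TPM in replicate 1 and 3.94 in replicate 2. The transcript from the downstream start, Pklr-202, had 6.05 and 8.0 TPM. The authors' posterior intervals, whose level was not stated, were apart for Pklr-201, at 5.74 to 10.4 TPM in replicate 1 and 1.51 to 5.51 TPM in replicate 2. Those of Pklr-202, 3.69 to 8.15 TPM and 6.17 to 10.0 TPM, overlapped. The 8 erythroid markers summed to 287 TPM in replicate 1 and 142 in replicate 2, with 7 of 8 at least 2-fold higher in replicate 1. All 8 liver markers were also higher in replicate 1, 6 of them at least 2-fold. None of these markers was at 0, and their part in the Pklr levels was not tested.

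**Figure D2:**
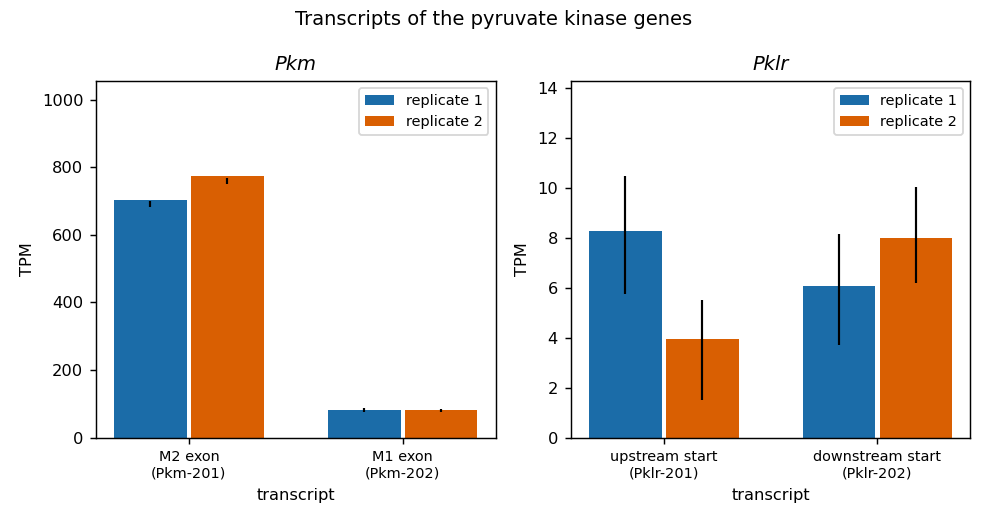
TPM of the transcripts of Pkm (left) and Pklr (right), with replicate 1 and replicate 2 side by side. Black lines are the authors' posterior intervals of each transcript, which lie around the posterior mean and not around the plotted TPM. The M2 form of Pkm stands at 704 and 773 TPM and the M1 form at 83.0 and 81.4 TPM, while the higher Pklr transcript differs between the libraries.

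Lactate dehydrogenase had the highest sum of the 11 enzymatic steps, 1660 ± 72.2 TPM. Ldha (ENSMUSG00000063229.10, chr7:46841475-46855627), the muscle-type subunit and a HIF target, had 1503 TPM in replicate 1 and 1594 in replicate 2, from 68271 and 72902 counts. Ldhb, the heart-type subunit, had 106 and 116 TPM. Ldha made up 93.4% and 93.2% of the step, a log2 ratio of 3.80 ± 0.04. Ldhc, the testis form, was below the detection limit, at 4 and 3 counts.

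Lactate leaves cells through monocarboxylate transporters. Slc16a3, the exporter MCT4 of glycolytic cells, had 47.1 TPM in replicate 1 and 49.1 in replicate 2, and Slc16a1, the widespread MCT1, had 29.2 and 27.4 TPM. Slc16a3 was ahead by a log2 ratio of 0.76 ± 0.11 in TPM. Counts without correction for length gave the opposite order, a log2 ratio of -0.32, so this lead rests on the length correction. Slc16a7, the transporter MCT2, had 4.84 and 4.39 TPM.

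Across the whole pathway the same isozyme led in both libraries at each of the 11 steps and functions with several members, and the full order was the same at all 11. The 21 enzyme genes of the 11 enzymatic steps took 0.760% of the gene TPM in replicate 1 and 0.869% in replicate 2, with sums of 7294 and 8126 TPM. Ldha, Gapdh, Eno1 and Pkm together made up 63.5% and 64.9% of that. The sums of the steps ranged over 57.1 ± 2.80 TPM for hexokinase, 213 ± 14.1 TPM for phosphofructokinase, 220.3 ± 59.3 TPM for phosphoglycerate kinase and 240.2 ± 28.9 TPM for the isomerase Gpi1. Mutase (511 ± 27.0 TPM), aldolase (635 ± 18.0 TPM), Tpi1 (736 ± 17.2 TPM) and pyruvate kinase (836 ± 45.5 TPM) lay in the middle. Enolase (1215 ± 157 TPM), Gapdh (1388 ± 187 TPM) and lactate dehydrogenase were highest. The values of enolase and Gapdh overlapped between the libraries, though Gapdh was higher within each. Over protein-coding transcripts alone Gapdh had only 475 TPM in replicate 1 and 574 in replicate 2. Its rank and the shares above thus depend on how its reads were assigned. The values of phosphofructokinase, phosphoglycerate kinase and Gpi1 overlapped too. Gpi1 was above phosphofructokinase in each library, while the place of phosphoglycerate kinase differed between them.

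**Figure D3:**
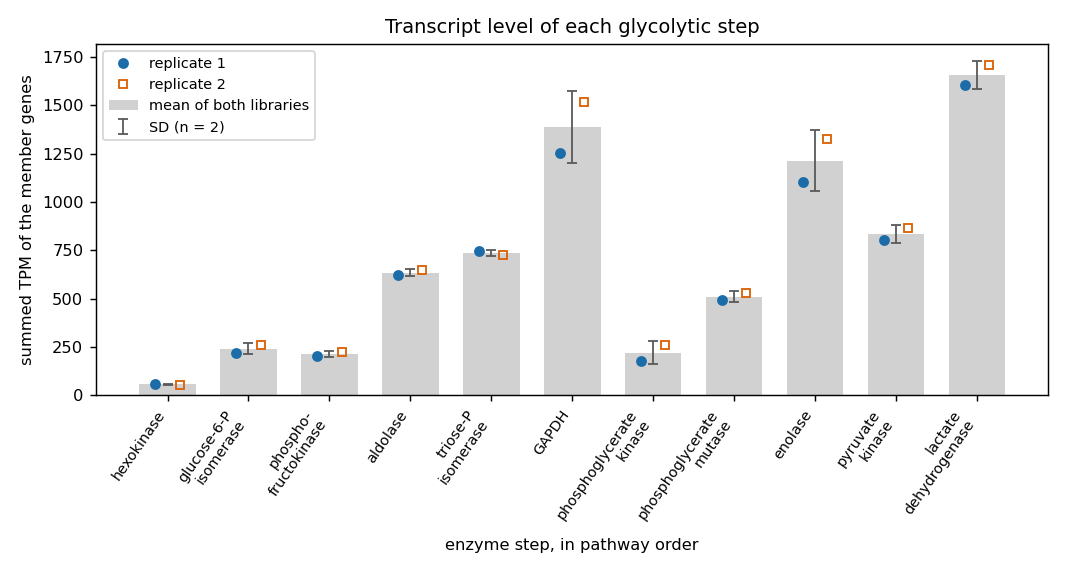
Summed TPM of the member genes at each glycolytic step, in pathway order, with grey bars for the mean, error bars for the SD (n = 2) and points for replicate 1 (circles) and replicate 2 (squares). Hexokinase is lowest at 57.1 TPM and lactate dehydrogenase highest at 1660 TPM.

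**Figure D4:**
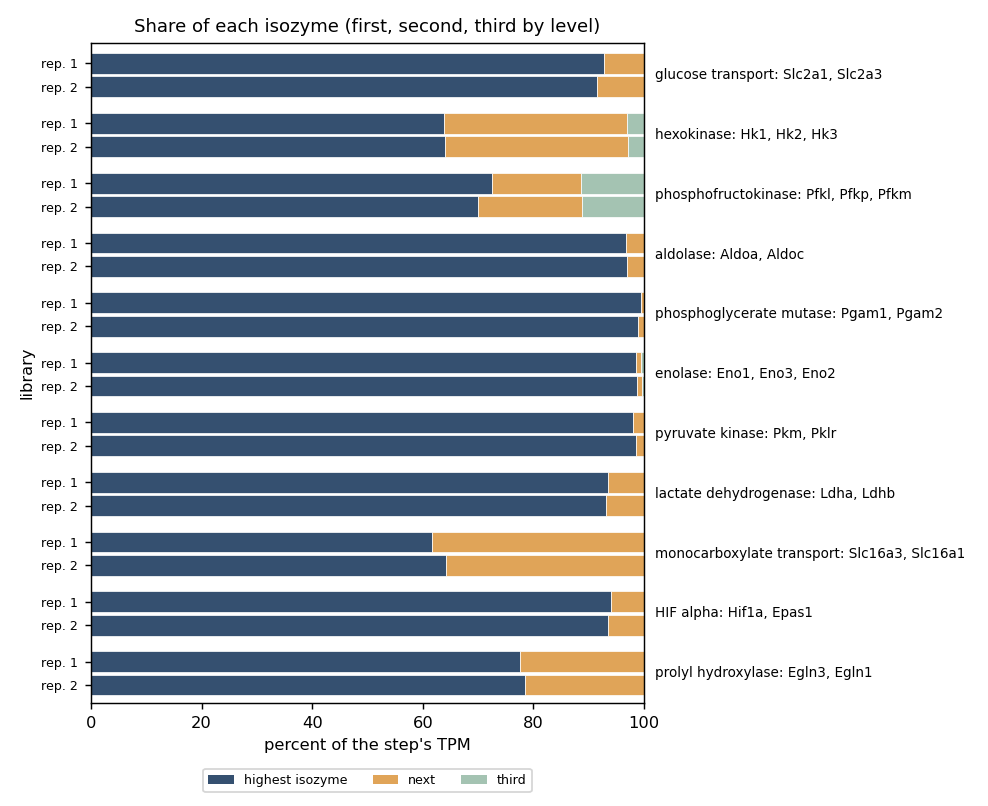
Share of each isozyme in the TPM of its step or function, in percent, with replicate 1 above replicate 2 and isozymes stacked from the highest to the lowest. Hexokinase, with Hk1 at 63.8% and 64.0%, and monocarboxylate transport are split most evenly, and the mutases, led by Pgam1 at 99.4% and 98.97%, least.

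Of the 22 other isozymes and relatives, 17 were detected. Those not detected were Gapdhs, Pgk2, Eno4, Ldhc and Pdha2, of which Gapdhs, Pgk2, Ldhc and Pdha2 are known as testis or sperm forms, and Pgk2 and Pdha2 had 0 counts. Eno4 was the only gene of that list past a 2-fold difference between the libraries, from 16 counts in replicate 1 and 38 in replicate 2.

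Pyruvate that is not turned into lactate enters mitochondria and is oxidised by the pyruvate dehydrogenase complex. Pdha1, its catalytic alpha subunit, had 99.5 TPM in replicate 1 and 104 in replicate 2. Pdk1, a HIF target that inactivates the complex by phosphorylation, had 54.2 and 56.4 TPM, of which 40.6% and 45.3% lay on protein-coding transcripts. Over all transcripts Pdk3 (43.6 and 44.5 TPM), Pdk2 (24.7 and 28.5 TPM) and Pdk4 (2.11 and 2.82 TPM) were below Pdk1 in both libraries. On protein-coding transcripts alone Pdk1 had 22.0 TPM in replicate 1 and 25.5 in replicate 2. The levels of its relatives on such transcripts were not measured, so this order holds for all transcripts only. All 8 matched genes of pyruvate entry were detected, led by the pyruvate carrier subunit Mpc1 (160.4 and 159.7 TPM), the dehydrogenase beta subunit Pdhb (129 and 139 TPM) and the second carrier subunit Mpc2 (132 and 129 TPM).

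Among the HIF alpha subunits, Hif1a (chr12:73901375-73947530) had 53.7 TPM in replicate 1 and 55.1 in replicate 2. Epas1, the HIF2 alpha subunit known from endothelium, had 3.41 and 3.81 TPM, a log2 ratio of Hif1a over Epas1 of 3.91 ± 0.09. Hif3a, the third alpha subunit, lay between them with 38.2 and 44.2 TPM. The 5 endothelial markers were all detected and summed to 187 TPM in replicate 1 and 199 in replicate 2. Hif1a transcript levels do not report the activity of the protein, which is set mainly by its stability.

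Of the prolyl hydroxylases, Egln3, itself a HIF target, had 43.8 TPM in replicate 1 and 42.7 in replicate 2. Egln1, the main oxygen sensor of most tissues, had 12.7 and 11.7 TPM, a log2 ratio of Egln3 over Egln1 of 1.83 ± 0.06. Egln2, which lies outside the 34, exceeded both with 56.5 and 60.1 TPM. All 8 genes of HIF regulation were detected, led by ubiquitin ligase components, with 769 and 686 TPM for Elob, 232 and 225 TPM for Eloc and 185 and 187 TPM for Rbx1.

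Bnip3, a mitophagy receptor induced by HIF, had 104 TPM in replicate 1 and 114 in replicate 2, and its relative Bnip3l had 291 and 309 TPM. Car9 (ENSMUSG00000028463.10, chr4:43506966-43513729), a carbonic anhydrase of the cell surface that is a HIF target and is also known from normal gastric epithelium, had 25.5 and 37.3 TPM. Its relative Car12 had 10.2 and 7.69 TPM. The Car9 values rested on 1432 and 2106 counts, and their mean was 31.4 ± 8.34 TPM. Of 20 other HIF targets 18 were detected, with Mif (1596 and 1495 TPM), Anxa2 (776 and 706 TPM) and Bnip3l highest.

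The ACGTG form of the HIF binding core was searched on both strands of RefSeq promoter windows of the GRCm38.p6 assembly. Windows ran from 250 bases before to 50 bases after each start, and the GCGTG form was not searched. Of the 34 genes 32 matched an entry, and 20 of those (62.5%) held ACGTG in at least 1 window. The share was 28.3% among the protein-coding genes detected in both libraries that matched and 21.8% of all genes in the table. By windows it was 23 of 46 for these genes, against 24.3% and 19.6%. Slc2a1, Gapdh, Pgk1, Ldha, Pkm, Car9, Bnip3, Egln3 and Egln1 held ACGTG, while Pdk1, Pfkl, Eno1, Tpi1 and Gpi1 did not within these windows. Many of the 34 were listed because they are known HIF targets, so the share describes the choice of genes, and a match is not a bound site.

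On counts scaled by TMM factors, 0 of 34 genes differed by at least 2-fold between replicate 1 and replicate 2, where 7.35% of the 19303 genes with at least 20 counts did (6.24% higher and 1.11% lower in replicate 1), and 3.48% of the protein-coding ones. Only Pgam2 differed by at least 1.5-fold, where 13.5% of all such genes and 8.32% of the protein-coding ones did. The median log2 ratio of replicate 1 over replicate 2 was -0.06, against 0.00 over all genes, and the median size was 0.11 against 0.13. Most of the 34 were abundant: the 29 at 10 TPM or more in both libraries had a median size of 0.10 and 0 past 2-fold, against 0.08 and 1.24% for the 9172 genes at that level, so they were not closer between the pools than genes of like level. Of the 34 ratios 11 were above 0 and 23 below it. Scaling by spike-in totals shifted every ratio by 0.68 and left 33 above 0 and 1 below it, Pgam2 at -0.27, so the directions given here hold relative to the other genes of each library.

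Pgam2 (ENSMUSG00000020475.3, chr11:5801640-5803733) had the largest ratio in size, -0.95, with a 95% counting interval of -1.42 to -0.51. That interval covers counting error only, since reads without molecular identifiers are not independent molecules. Other isozymes known from muscle had log2 ratios of -0.27 (Eno3), -0.09 (Pfkm), -0.05 (Ldha), -0.02 (Aldoa) and 0.13 (Hk2). On this scale all of these but Hk2 were below 0, and only Eno3 exceeded in size the median size over all genes, 0.13. The 10 striated muscle markers summed to 106 TPM in replicate 1 and 186 in replicate 2, with 9 of 10 lower in replicate 1, 4 of them at least 2-fold, and none at 0. Their part in the Pgam2 and Eno3 differences was not tested. Pklr, with a log2 ratio of 0.29, and Eno2, with 0.38, were the genes highest in replicate 1 relative to replicate 2. The retained-intron transcript of Eno2 was listed at 2.85 TPM in replicate 1 and 1.48 in replicate 2. Its posterior intervals from the authors, 1.89 to 3.45 TPM and 0.62 to 1.96 TPM, overlapped. Over protein-coding transcripts Eno2 was listed lower in replicate 1, at 2.08 against 2.35 TPM. The intervals of its highest protein-coding transcript, 0.04 to 1.73 TPM and 0.94 to 2.28 TPM, overlapped too. Which transcripts carry the Eno2 difference was therefore not set beyond these intervals.

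Pgk1, Gapdh and Eno1 were lower in replicate 1, with log2 ratios of -0.52, -0.26 and -0.24 on TMM-scaled counts, but higher on spike-in totals, with 0.16, 0.42 and 0.44. Each has near-identical copies elsewhere in the genome. Of the members 7 had such copies by a transcript match of at least 95% identity, and the copies had more than 5% of the member's TPM in both libraries for 3 of them (Gapdh, Pgk1 and Pgam1) and in at least 1 library for 4, with Eno1. The processed pseudogene Pgk1-rs7 (chr12:10898986-10900240) was listed at 119.7 TPM in replicate 1 and 47.5 in replicate 2, which is 67.1% and 18.1% of the Pgk1 level. Its whole annotated transcript of 1255 bases is identical to positions 153 to 1407 of the Pgk1 transcript, without a mismatch or gap. Reads inside that stretch therefore cannot be told apart by sequence, and Pgk1 levels hold only as far as the authors' division of reads does.

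Pgam1-ps2, a copy of 765 bases identical to part of Pgam1, was listed at 127 TPM in replicate 1 and 67.9 in replicate 2. Gm4735, whose 1302 bases match Eno1 with 5 mismatches, was listed at 162 and 36.7 TPM, and 82 copies of Gapdh summed to 245 and 101 TPM. These levels and the sum were all higher in replicate 1, the opposite of the parent genes. With the counts of the copies added to the parent, the log2 ratios became -0.04 for Pgk1, -0.07 for Gapdh, -0.11 for Eno1 and 0.00 for Pgam1. The class of processed pseudogenes as a whole was higher in replicate 1, with a median log2 ratio of 1.70 over 937 genes and 67.8% of them at least 2-fold higher, while protein-coding genes had a median of -0.01. Whether the copies are transcribed or receive reads of their parents was not tested.

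**Figure D5:**
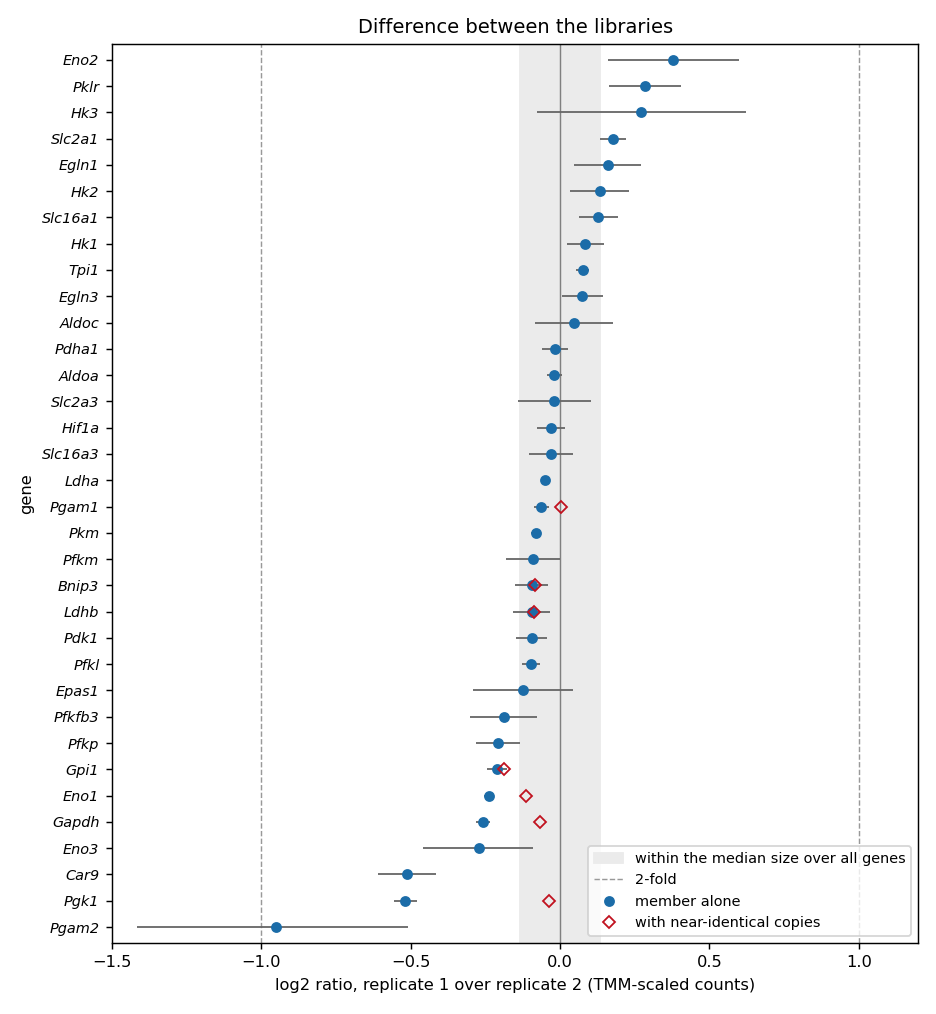
Log2 ratio of replicate 1 over replicate 2 for the 34 genes on TMM-scaled counts (circles, with 95% counting intervals) and for the 7 members with near-identical copies after the copies' counts were added (diamonds). The grey band spans the median size over all genes, 0.13, and dashed lines mark 2-fold. Pgk1 lies at -0.52 alone and at -0.04 with its copies, and no gene passes 2-fold.

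Car9 had no such copy. Its log2 ratio was -0.51 (counting interval -0.61 to -0.41), and 0.17 on spike-in totals. On TMM-scaled counts it was the largest in size among Car9, Bnip3, Pdk1, Pfkfb3, Egln1, Egln3, Hif1a and Epas1. Slc2a1 differed in the other direction, with 0.18, and Bnip3, Pdk1 and Hif1a had -0.09, -0.10 and -0.03. On this scale the HIF targets did not share a direction between the pools, with 9 of the 18 detected targets outside the 34 higher in replicate 1 and 9 lower.

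The transcript tables gave 28 of the 34 genes several transcripts and 6 a single one. In 25 of the 28 the same transcript was highest in both libraries, and in 12 it had at least 90% of the gene's TPM in both. The 3 exceptions were Eno2, Pklr and Pfkm. The same shares over all genes were not computed, so these counts describe the 34 alone. For Pfkm the transcript Pfkm-201, which starts downstream at 98108466 on chromosome 15, had 8.75 TPM in replicate 1 and 14.3 in replicate 2. Pfkm-202, which starts upstream at 98092589, had 14.3 and 10.9 TPM, and the authors' intervals of both transcripts overlapped between the libraries.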

How the data were processed

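Each library came with 2 tables from the authors, 1 of genes and 1 of transcripts, aligned to mm10 and counted on annotation M4 per their deposited text. Which aligner, quantification program and strand setting were used is not given in the sources used here. Per the file headers, these tables give expected counts, in which reads shared by several features are split, and TPM scaled by effective length. Per the file headers, the deposited transcript tables give each transcript's share of its gene in percent. Antisense reads may be mixed with those of the gene, since the strand setting is not given.

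Members and lists were chosen with earlier results of these data known. Symbols, types and coordinates came from GENCODE M21, matched for 42462 genes. Levels are TPM per library. For ratios, expected counts were rounded, scaled by TMM factors in edgeR 4.0.16 (R 4.3.3) for genes whose counts summed to 20 or more, and given a prior count of 0.5, without a test. Detection meant 1 TPM in both libraries. The ratio step was tested on simulated data. Pkm forms were assigned by exon content. Near-identical copies were matched with BLAST 2.17.0 (95% identity, 100 bases, 50% of the copy's longest transcript). Alternatives were other thresholds, posterior-mean TPM, uncorrected counts, DESeq2 1.42.0 size factors, library totals, spike-in totals and each library left out. All members, the detected other isozymes and the 3 highest genes of each other list are named, apart from a few that are not reported here.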

Additional observations from a re-analysis of the deposited data

How the results depend on the processing

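All 34 genes were detected at 0.5 TPM as at 1 TPM, 30 at 5 TPM and 29 at 10 TPM. Leaving out either library could not lower the 34, since detection already required both. With 1 library left out, the shares are those of the other library as given above. These were 89.5% to 90.5% for M2 and 0.760% to 0.869% of gene TPM for the enzymes, so this is no separate check. Spike-in totals shifted all log2 ratios by 0.68, so 1 gene, Eno2, passed 2-fold and the median became 0.62. A limit of 1.5-fold called 1 gene. Counts without length correction reversed Slc16a3 over Slc16a1 to -0.32 and left the leading isozyme the same at 10 steps. Adding near-identical copies, chosen after seeing the data, left 0 genes past 2-fold. DESeq2 size factors and library totals shifted all log2 ratios by a constant, -0.0007 and -0.01, so the 36 ratio results are not separate checks. These shifts were smaller than the median size over all genes, 0.13, and left 0 genes past 2-fold. No paired analysis was possible because there was 1 group. Depth limits Pgam2 and Hk3 most, and no test was run on 2 pools.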

Other observations

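Genes of gluconeogenesis, which runs the pathway backwards in liver and kidney, were measured beside the glycolytic ones, and 3 of 5 were detected. Fbp2, the muscle-type fructose bisphosphatase, had 73.5 TPM in replicate 1 and 82.1 in replicate 2. Fbp1, the liver type, had 2.40 and 1.91 TPM, beside 8 liver markers that summed to 2258 and 1097 TPM. The mitochondrial carboxykinase Pck2 had 24.9 and 26.2 TPM. The cytosolic Pck1 had 0.98 and 1.18 TPM, below the limit in replicate 1, and G6pc, which releases glucose, had 5 and 4 counts. Fbp2 was thus above both Pfkp and Pfkm in each library, but below the leading phosphofructokinase Pfkl, with 147 and 156 TPM.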
